A study of Homo sapiens with 24 samples.

Results

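The early response of AsPC-1 cells to PD-0332991 is described here across genes. AsPC-1 is an established human pancreatic ductal adenocarcinoma line, and PD-0332991 (palbociclib) inhibits CDK4 and CDK6, the kinases that partner with D-type cyclins. Cultures received PD-0332991 at 5 µM or vehicle control, and total RNA was taken at 24 h. Its arrays were taken by their sample labels, 6 of the 24 arrays of the series, 3 treated and 3 vehicle. Per the labels the 3 arrays of a group are biological triplicates, all grown in the same medium and serum, so the results apply to 1 line in culture and 1 dose. All 24 arrays, with COLO-357 at 72 h among them, were normalised together. The spread behind each SE and adjusted p was estimated over all of them, unless another setting is named. Only some of the other arrays served for comparison. They were COLO-357 cells, a pancreatic ductal adenocarcinoma line kept in another base medium, with the same dose or vehicle at 24 h, and AsPC-1 cells with the same dose or vehicle at 72 h.

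CDK4 and CDK6, bound to a D-type cyclin, phosphorylate the retinoblastoma protein RB and its relatives in G1. While these proteins are unphosphorylated, they hold back E2F transcription factors, and the DREAM complex keeps genes of S phase and mitosis low in resting cells. Genes of DNA replication are typical E2F targets, and many mitotic genes carry CCAAT boxes and a cell cycle homology region (CHR), through which DREAM and later the B-MYB and FOXM1 complexes act. The integrated stress response raises amino acid synthesis genes through the factor ATF4, and cells low in sterol raise cholesterol synthesis genes through SREBP factors.

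Signals are Illumina bead intensities, given below as normalised log2 levels, and a difference of 1 on this scale is a 2-fold change. Of the 47223 probes, 24750 were above background on at least 3 of the 24 arrays and were tested. The files pair gene symbols with 685 of these probes, which carry 605 symbols, through the authors' 6 lists of changed genes. A named gene therefore owes its name to a change the authors reported in this or another comparison, and a gene without a value below may be among the unnamed probes. Markers of other cell types had 0 named members, as had markers of pancreatic ductal cells, so the labelled cell type could not be checked. In these bulk RNA samples, fewer cells of a kind (such as cells in S phase or mitosis) and less RNA per cell cannot be told apart.

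Between 16440 and 18586 probes were detected on the 6 arrays. Vehicle replicate 1 stood apart from its mates. Its values deviated from the mean of its mates by a median of 0.296 log2, against 0.212 and 0.236 for the other vehicle arrays and 0.154 to 0.169 for the treated arrays. Over all tested probes it correlated with its mates at 0.970 and 0.974, and they correlated with each other at 0.984. The median SD of the vehicle group was 0.248 log2 with replicate 1 and 0.14 without it. Among the 95 named genes that were higher after the drug, replicate 1 was the lowest vehicle array for 58, and among the 242 that were lower it was the highest for 129. Among the genes described below, drug effect calls lost without it are therefore marked, and sizes without it are given for some. What sets this array apart was not tested.

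The promoters of 7 genes are shown first, because genes of the same role moved together and their promoters can be set side by side. They are those of the genes with the largest fall in the origin licensing, kinetochore, mitotic kinase, spindle and sterol synthesis lists, among genes with a window in the RefSeq table, and of the 2 amino acid response genes with the largest rise. Each window runs from 250 bases before to 50 bases after the annotated start (RefSeq, GRCh38.p14), written 5′ to 3′ on the strand of the gene. In the first 4 windows capitals mark every match, on either strand, to an E2F motif (the letters TTGGCGC, the variant TTCGCGC, the variant TTCCCGC or the variant TTGCCGC), to the CHR motif TTTGAA or to a CCAAT box. In ADM2 and ASNS they mark TGATGNAA, a core of the element bound by ATF4, and in INSIG1 they mark TCACNCCAC, a sterol regulatory element. No 2 of the marked matches overlapped.
GINS2, chr16:85688905-85689204, minus strand: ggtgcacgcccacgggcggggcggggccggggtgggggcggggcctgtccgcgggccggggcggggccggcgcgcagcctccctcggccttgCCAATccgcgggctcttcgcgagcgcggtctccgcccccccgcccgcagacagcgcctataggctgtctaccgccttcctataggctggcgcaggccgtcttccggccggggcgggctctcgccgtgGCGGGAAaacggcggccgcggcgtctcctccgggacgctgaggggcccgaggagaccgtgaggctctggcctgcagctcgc
CENPA, chr2:26785806-26786105, plus strand: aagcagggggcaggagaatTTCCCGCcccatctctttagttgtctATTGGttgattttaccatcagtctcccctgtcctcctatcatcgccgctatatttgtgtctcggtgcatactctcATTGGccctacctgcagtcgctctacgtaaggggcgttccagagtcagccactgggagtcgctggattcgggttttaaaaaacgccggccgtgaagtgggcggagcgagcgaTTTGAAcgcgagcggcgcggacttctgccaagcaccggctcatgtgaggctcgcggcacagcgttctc
CDC25C, chr5:138338306-138338605, minus strand: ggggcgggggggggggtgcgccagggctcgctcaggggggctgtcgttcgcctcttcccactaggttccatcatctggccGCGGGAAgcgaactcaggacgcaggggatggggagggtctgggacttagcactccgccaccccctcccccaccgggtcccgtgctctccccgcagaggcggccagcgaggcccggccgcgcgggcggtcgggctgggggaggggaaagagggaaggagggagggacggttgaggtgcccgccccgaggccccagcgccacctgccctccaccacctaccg
KIF20A, chr5:138178862-138179161, plus strand: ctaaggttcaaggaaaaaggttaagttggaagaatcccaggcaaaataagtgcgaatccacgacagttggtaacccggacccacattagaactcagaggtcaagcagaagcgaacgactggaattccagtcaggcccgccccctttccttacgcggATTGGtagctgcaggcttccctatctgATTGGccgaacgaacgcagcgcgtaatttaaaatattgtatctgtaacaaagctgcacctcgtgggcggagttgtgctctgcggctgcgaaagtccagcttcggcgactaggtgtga
ADM2, chr22:50481293-50481592, plus strand: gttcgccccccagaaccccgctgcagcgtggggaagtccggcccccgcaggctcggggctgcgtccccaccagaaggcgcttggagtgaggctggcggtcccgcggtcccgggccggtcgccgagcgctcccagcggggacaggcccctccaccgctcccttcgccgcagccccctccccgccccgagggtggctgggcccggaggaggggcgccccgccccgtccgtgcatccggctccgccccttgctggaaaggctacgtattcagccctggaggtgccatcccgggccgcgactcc
ASNS, chr7:97872359-97872658, minus strand: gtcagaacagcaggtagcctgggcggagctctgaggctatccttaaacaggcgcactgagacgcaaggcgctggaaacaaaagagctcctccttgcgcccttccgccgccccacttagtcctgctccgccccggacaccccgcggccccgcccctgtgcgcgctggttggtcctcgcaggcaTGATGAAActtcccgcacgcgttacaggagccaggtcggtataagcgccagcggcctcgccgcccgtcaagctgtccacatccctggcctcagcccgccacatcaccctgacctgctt
INSIG1, chr7:155297628-155297927, plus strand: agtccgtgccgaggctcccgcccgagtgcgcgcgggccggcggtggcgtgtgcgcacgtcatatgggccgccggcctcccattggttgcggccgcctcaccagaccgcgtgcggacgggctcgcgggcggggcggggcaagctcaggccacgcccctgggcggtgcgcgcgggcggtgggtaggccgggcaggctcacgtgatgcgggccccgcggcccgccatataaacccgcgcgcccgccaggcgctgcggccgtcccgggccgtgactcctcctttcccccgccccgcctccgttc

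Counted from the annotated start, GINS2 had an E2F match at -31 and a CCAAT match at -158. CENPA had an E2F match at -231, a CHR match at -18 and CCAAT matches at -205 and -130. CDC25C had an E2F match at -170 and no CHR or CCAAT match, KIF20A had CCAAT matches at -94 and -67 and neither of the other motifs, and ASNS had its match at -68. ADM2 and INSIG1 had no match to the motif searched in them, which says only that these letters are not in the window. An E2F motif stood in 13.1% of all 27305 promoter windows, in 24 of the 43 windows found for genes of the G1 to S phase lists that fell (55.8%) and in 20 of the 65 found for genes of the mitosis lists that fell (30.8%). The CHR motif stood in 15.4% of all windows, in 14% of the first group and in 64.6% of the second. A CCAAT box stood in 35.7% of all windows, 55.8% of the first group and 75.4% of the second. Among the 63 windows of named genes that rose, the shares were 17.5% for E2F, 6.35% for CHR and 33.3% for CCAAT. TGATGNAA stood in 3.67% of all windows and in 2 of the 6 found for amino acid response genes that rose, of which 3 held an E2F motif and 4 a CCAAT box. The sterol element stood in 1.15% of all windows and in 0 of the 4 found for sterol synthesis genes. A match is a description of letters and not evidence of binding.

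Among the named genes that fell, those of DNA replication, chromosome segregation and cell division were the most numerous, 134 of 242. Most probes that were lower carry no name here. Of the 139 named genes in 13 cell cycle lists, 134 fell, 1 rose and 4 did not pass the test. Their median was -1.72 log2, against 0.01 over all probes tested, and 129 fell at least 2-fold and 40 at least 4-fold. In the authors' scaled values their median was -1.26, against 0.03 over all probes, so these sizes depend on the processing. Over all probes 1.66% were called at least 2-fold lower and 0.82% at least 2-fold higher. For 135 of the 139 all 3 treated values lay below all 3 vehicle values. Over all tested probes 11.7% were called at an adjusted p under 0.05, 5.93% higher and 5.79% lower, and in 10.6% all treated values lay below all vehicle values. These calls were 1468 higher and 1432 lower, and in the authors' scaled values, without a background step, 2061 higher and 833 lower. The authors named 103 of the 139 for a change in this same comparison, so the count is not independent evidence. Of the other 36, named through another comparison, 32 fell, with a median of -1.15. Many of these were named for a change under the same drug in COLO-357, so they are not an unselected set. Without vehicle replicate 1, 135 of the 139 fell, against 5.45% of all probes lower and 5.05% higher.

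**Figure D1:**
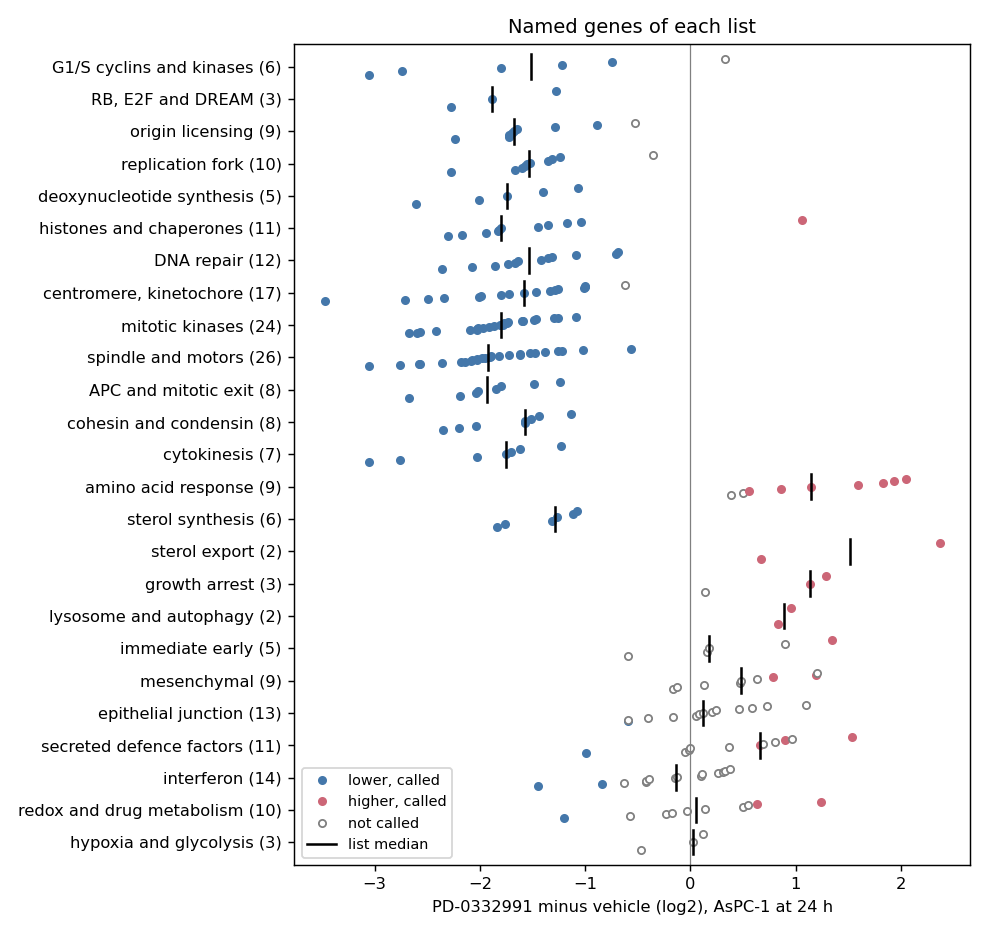
Difference between PD-0332991 and vehicle (log2) in AsPC-1 at 24 h for each named gene, by list, with the number of named genes in brackets. Filled points passed an adjusted p of 0.05 (blue lower, red higher), open points did not, and the black bar is the list median. All 13 cell cycle lists at the top have medians between -1.93 and -1.51, and sterol synthesis has a median of -1.29.

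Of the 6 named genes of the G1 to S transition 5 fell. CCNE2, which encodes cyclin E2, the partner of CDK2 at the start of S phase, had levels of 9.19, 8.31 and 8.27 in the vehicle arrays and of 5.23, 5.37 and 6.02 in the treated arrays. All treated values lay more than 2 units below all vehicle values, and only 1 of the 3 treated arrays detected the transcript. It fell by 3.05 ± 0.28 (SE, adjusted p = 8.8e-08), an 8.28-fold difference, and by 2.75 without vehicle replicate 1. CDC25A, the phosphatase that removes inhibitory phosphates from CDK2, had levels of 7.96, 7.76 and 7.94 with vehicle and was not above background on any treated array. On the normalised scale it was at least 5.23-fold lower (adjusted p = 6.7e-09), taking the lowest detected signal of each treated array as the limit. In the authors' list its fall was 2.43-fold, so the limit holds for the normalised values only. CDK2 itself fell by 1.22 ± 0.13, and FBXO5 (EMI1), which restrains the anaphase promoting complex during S phase, fell by 1.80 ± 0.15. CCND1, which encodes the D-type cyclin that activates CDK4 and CDK6, had levels of 12.51, 12.28 and 12.26 with vehicle and of 12.67, 12.61 and 12.76 with the drug. Its treated values were all above its vehicle values, and the difference of 0.33 ± 0.13 did not pass the test (adjusted p = 0.11, or 0.062 without vehicle replicate 1).

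**Figure D2:**
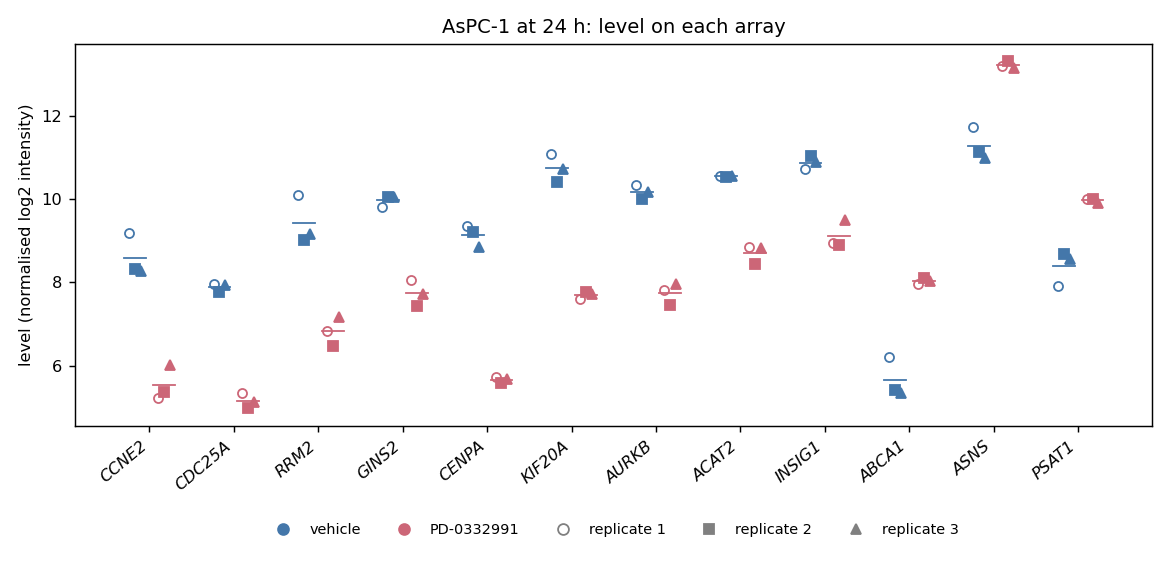
Level of 12 genes (normalised log2 intensity) on each of the 6 arrays, vehicle in blue and PD-0332991 in red, with the replicate given by the marker (open for replicate 1) and the group mean as a line. The groups do not overlap for any of the 12, and vehicle replicate 1 lies apart from its mates for CCNE2, RRM2, ABCA1, ASNS and PSAT1.

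All 3 named transcription factors of the RB, E2F and DREAM list fell. E2F2, an activating E2F, went from 9.97, 9.99 and 9.87 with vehicle to 8.30, 7.68 and 8.20 with the drug. E2F2 fell by 1.88 ± 0.17 (adjusted p = 5.8e-08), FOXM1, which drives genes of G2 and mitosis, by 2.27 ± 0.24, and E2F7, a repressive E2F, by 1.28 ± 0.20. The activating and the repressive factors moved in the same direction.

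Origin licensing and firing genes fell in 8 of 9 cases (median -1.68). GINS2, a subunit of the GINS complex of the replicative helicase, had levels of 9.81, 10.04 and 10.06 with vehicle and of 8.06, 7.43 and 7.71 with the drug. It fell by 2.24 ± 0.18 (adjusted p = 1.3e-08). CDC45L (CDC45), the other helicase cofactor, fell by 1.72 ± 0.13, the licensing factor CDT1 by 1.68 ± 0.14 and its inhibitor geminin (GMNN) by 1.72 ± 0.17. Among subunits of the MCM helicase, MCM4 fell by 1.65 ± 0.20 and MCM7 by 1.29 ± 0.13. MCM8, which works in recombination and is not part of the replicative MCM2-7 ring, differed by -0.53 and did not pass (adjusted p = 0.14).

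Of the 10 replication fork genes 9 fell (median -1.53), among them the sliding clamp PCNA by 1.52 ± 0.13, the primase subunit PRIM1 by 1.67 ± 0.14, the polymerase epsilon subunit POLE2 by 1.57 ± 0.14 and the flap endonuclease FEN1 by 1.55 ± 0.13. KIAA0101 (PCLAF), a small protein that binds PCNA, had levels of 12, 11.77 and 11.89 with vehicle and of 9.56, 9.68 and 9.60 with the drug, and fell by 2.27 ± 0.13, with little spread in either group. RPA3, the small subunit of the single-strand binding protein, was the exception at -0.35 (adjusted p = 0.17). Its vehicle levels were 11.44, 12.16 and 12.22, so replicate 1 was lowest, and without that array RPA3 was lower by 0.60 log2 units (adjusted p = 0.0037). All 5 named genes of deoxynucleotide synthesis fell. RRM2, the regulated subunit of ribonucleotide reductase, went from 10.11, 9.02 and 9.16 to 6.83, 6.46 and 7.17. RRM2 fell by 2.61 ± 0.24, and by 2.27 without vehicle replicate 1. Its partner RRM1 fell by 1.4 ± 0.11, thymidylate synthase (TYMS) by 2.01 ± 0.14 and thymidine kinase TK1 by 1.74 ± 0.16.

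Chromatin genes of dividing cells fell in 10 of 11 cases (median -1.80). LMNB1, a lamin of the nuclear envelope, fell by 2.30 ± 0.20, EZH2, the methyltransferase of Polycomb complex PRC2, by 2.17 ± 0.20, and the histone chaperones CHAF1B and ASF1B by 1.94 ± 0.18 and 1.83 ± 0.13. The exception was the histone gene HIST1H2BK, with levels of 10.45, 11.11 and 11 with vehicle and of 11.89, 11.87 and 11.99 with the drug. It rose by 1.06 ± 0.19 (adjusted p = 0.00048). HIST1H2BK was chosen after its values were seen, as the only cell cycle list member to rise. Probes of near-identical histone genes cannot always be told apart. All 12 named DNA repair genes fell (median -1.53), with the nuclease EXO1 lower by 2.36 ± 0.21, the recombination factor BARD1 by 1.86 ± 0.13 and the Fanconi anaemia gene FANCI by 1.67 ± 0.19.

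Genes of mitosis fell as a group and included the largest differences. CENPA, the histone H3 variant that marks centromeres, had levels of 9.35, 9.21 and 8.84 with vehicle and of 5.73, 5.59 and 5.67 with the drug. CENPA fell by 3.47 ± 0.23 (adjusted p = 1.5e-09). This was an 11.1-fold difference and the largest fall among the named genes in the normalised values. A further CENPA probe fell by 2.84 ± 0.24, with 1 of 3 treated arrays above background. In the ratios of the authors' list CENPA fell 4-fold, and the largest fall was that of KIF20A, 5.61-fold. HJURP, the chaperone that deposits CENPA, fell by 2.71 ± 0.20, and SPC25 and NDC80, both of the NDC80 complex that binds microtubules, by 2.49 ± 0.19 and 1.99 ± 0.19, with SPC25 above background on 1 of 3 treated arrays. Of the 17 centromere and kinetochore genes 16 fell (median -1.58). The remaining one, C6orf173, differed by -0.62 (adjusted p = 0.2), with vehicle levels of 8.60, 10.04 and 9.78, so vehicle replicate 1 lay below the treated levels of 8.82, 8.83 and 8.91. Without that array it was lower by 1.06 log2 units (adjusted p = 0.012). C6orf173 was chosen after its values were seen, as the only kinetochore gene that did not pass.

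All 24 named mitotic kinase genes and regulators fell (median -1.80). AURKB, the kinase of the chromosomal passenger complex, went from 10.34, 10 and 10.18 to 7.82, 7.46 and 7.97, and fell by 2.42 ± 0.20. Its partners BIRC5 (survivin) and INCENP fell by 1.91 ± 0.16 and 1.81 ± 0.14. CDC25C, a phosphatase that activates CDK1, fell by 2.67 ± 0.21, with 2 of 3 treated arrays above background, and CDC2 (CDK1) fell by 2.02 ± 0.16. Cyclin A2 (CCNA2) fell by 2.57 ± 0.15 and cyclin B2 (CCNB2) by 1.77 ± 0.15. GTSE1, a microtubule-associated protein of G2 and mitosis, had the smallest fall of the list, by 1.09 ± 0.18 (adjusted p = 0.00017).

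All 26 named spindle genes fell (median -1.93). KIF20A, a kinesin of the central spindle, went from 11.08, 10.42 and 10.73 to 7.59, 7.77 and 7.73, and fell by 3.05 ± 0.22, and the chromosome-bound kinesin KIF4A fell by 2.76 ± 0.21. KIFC1, a kinesin that clusters centrosomes, fell by 2.57 ± 0.18, and PSRC1, a microtubule-binding protein, by 2.58 ± 0.17. All 8 genes around the anaphase promoting complex fell (median -1.93), including its activator CDC20 by 1.24 ± 0.13, its ubiquitin-conjugating enzyme UBE2C by 1.85 ± 0.15 and its substrate securin (PTTG1) by 2.19 ± 0.13. PTTG1 and the copy PTTG3P, which fell by 2.02 ± 0.15, are near-identical, so their probes may share target RNA. All 8 cohesin and condensin genes fell, topoisomerase TOP2A by 2.35 ± 0.23 and the condensin subunit NCAPG by 2.20 ± 0.17. All 7 cytokinesis genes fell, among them the midzone bundler PRC1 by 1.70 ± 0.14 and anillin (ANLN) by 1.23 ± 0.18. FAM64A (PIMREG), which is in none of the lists, was not above background on any treated array. On the normalised scale it was at least 4.76-fold lower (adjusted p = 7.5e-10), against a 2.37-fold fall in the authors' list.

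Cholesterol genes formed a second group that fell. All 6 named sterol synthesis genes and SREBP targets were lower (median -1.29), 4 of them named through this comparison. ACAT2, which makes the acetoacetyl-CoA that starts the pathway, had levels of 10.55, 10.53 and 10.56 with vehicle and of 8.85, 8.43 and 8.83 with the drug, and fell by 1.84 ± 0.15 (adjusted p = 1.1e-08). INSIG1, the sterol sensor that retains SREBP in the endoplasmic reticulum and is itself an SREBP target, went from 10.72, 11.03 and 10.88 to 8.94, 8.90 and 9.50. It fell by 1.76 ± 0.23 (adjusted p = 1.1e-05), with no overlap between the groups. The late-step enzymes DHCR7 and EBP fell by 1.31 ± 0.15 and 1.27 ± 0.14. HMGCS1, the synthase ahead of HMG-CoA reductase, fell by 1.08 ± 0.21 (adjusted p = 0.0011, or 0.083 with only these 6 arrays fitted). TMEM97, a sterol-regulated membrane protein that is in none of the lists, went from 10.09, 10.66 and 10.48 to 8.66, 8.52 and 8.89. TMEM97 fell by 1.72 ± 0.13 (adjusted p = 7.4e-09). All 6 list members kept their call without vehicle replicate 1, with falls of 0.96 to 1.84.

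Both named genes of cholesterol export rose. ABCA1, which moves cholesterol and phospholipid to apolipoprotein A-I, had levels of 6.21, 5.42 and 5.34 with vehicle, above background on 1 of the 3 arrays, and of 7.95, 8.11 and 8.02 with the drug. ABCA1 rose by 2.37 ± 0.22 (adjusted p = 8.1e-08), a value that rests in part on vehicle levels not above background. ABCG1, which exports cholesterol to lipoprotein particles, rose by 0.67 ± 0.14 (adjusted p = 0.0022, or 0.1 with only these 6 arrays fitted). A further ABCG1 probe differed by 0.24 and did not pass (adjusted p = 0.65).

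Amino acid response genes rose. Of the 9 named, 7 were higher and none lower (median 1.15), against 5.93% of all probes higher, and 5 of the 9 were named through this comparison. ASNS, asparagine synthetase, had levels of 11.73, 11.13 and 10.99 with vehicle and of 13.20, 13.31 and 13.15 with the drug, a rise by 1.94 ± 0.15 (adjusted p = 6.8e-09). ADM2, a secreted peptide that ATF4 raises, went from 6.61, 7.29 and 7.36 to 9.13, 9.27 and 8.99 and rose by 2.05 ± 0.19. Vehicle replicate 1 was the highest of its group for ASNS and the lowest for ADM2, and neither gene's groups overlapped. PSAT1, of serine synthesis, rose by 1.59 ± 0.16, and PCK2, the mitochondrial phosphoenolpyruvate carboxykinase, by 1.83 ± 0.16. The transaminase GPT2 rose by 0.86 ± 0.16 and WARS, the tryptophanyl-tRNA synthetase, by 1.15 ± 0.12. CARS, the cysteinyl-tRNA synthetase, passed at 0.56 ± 0.16 (adjusted p = 0.027), but leaving out any 1 of 5 of the 6 arrays ended its call (adjusted p as high as 0.14). The exception was vehicle replicate 1, without which it was 0.79 (adjusted p = 0.0012). MTHFD2, of mitochondrial folate metabolism, and DDIT4 (REDD1), an inhibitor of mTORC1, differed by 0.39 (adjusted p = 0.096) and 0.50 (adjusted p = 0.11). Both passed without vehicle replicate 1, at 0.61 (adjusted p = 0.0023) and 0.66 (adjusted p = 0.046). A further MTHFD2 probe passed with all 6 arrays at 0.57 (adjusted p = 0.017). In the authors' scaled values, which had no background step, 9 of the 9 were higher, against 2061 of the 24750 probes tested.

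Some genes tied to growth arrest and lysosomes also rose. MXD4, a MAX partner that opposes MYC, had levels of 9.56, 9.65 and 9.56 with vehicle and of 10.65, 10.82 and 10.73 with the drug, and it rose by 1.14 ± 0.20 (adjusted p = 0.00038). YPEL5 rose by 1.29 ± 0.18. TXNIP, an inhibitor of thioredoxin and of glucose uptake, had a difference of 0.14 (adjusted p = 0.76), and the sign turned to -0.03 without vehicle replicate 3. ULK1, the kinase that starts autophagy, rose by 0.96 ± 0.20, and MAP1LC3B (LC3B), which coats autophagosomes, by 0.83 ± 0.14, with the latter call lost when only these 6 arrays were fitted (adjusted p = 0.063). No other gene of the growth arrest and lysosome lists was named, out of 42 and 33 members.

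Other rises were spread over unlike genes. SEL1L3, a membrane protein related to SEL1L, had levels of 6.96, 6.94 and 6.39 with vehicle and of 8.98, 8.93 and 8.82 with the drug, a rise by 2.14 ± 0.15 (adjusted p = 3.7e-09). ARSD, a sulfatase family member, rose by 1.70 ± 0.14 and MFAP5, a microfibril protein of the matrix, by 1.66 ± 0.18. TTC14 rose by 1.61 ± 0.17, the monocarboxylate transporter gene SLC16A4 by 1.43 ± 0.21 and C1RL, a protease related to complement C1r, by 1.41 ± 0.21. The probe named RPS29, a ribosomal protein gene with near-identical copies, rose by 1.86 ± 0.25. CPA4, a carboxypeptidase, rose by 1.54 ± 0.44 (adjusted p = 0.024). CPA4 had treated levels of 8.53, 7.99 and 8.94, and its call was lost without treated replicate 1 (adjusted p = 0.06), treated replicate 3 (0.1) or vehicle replicate 2 (0.08).

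The remaining lists held 0 to 4 calls each, where 11.7% of all probes were called. With only these 6 arrays fitted, the calls of DUSP1, HERC5 and CPA4 held among them and the others were lost. In the mesenchymal list 2 of 9 genes rose, smooth muscle actin (ACTA2) by 1.19 ± 0.27 and the repressor SNAI2 by 0.79 ± 0.17, and none fell. PMEPA1, a target of TGF-beta, differed by 0.48 (adjusted p = 0.061, or 0.03 without vehicle replicate 1). In the epithelial list 1 of 13 genes fell, the tight junction gene CLDN7, by 0.59 ± 0.13. In the immediate early list 1 of 5 rose, the MAPK phosphatase DUSP1, by 1.35 ± 0.21, while JUN (0.18, adjusted p = 0.61) and CYR61 (0.16, adjusted p = 0.8) did not pass. In the interferon list 2 of 14 fell, the ISG15 ligase HERC5 by 1.45 ± 0.23, and IFIT3 by 0.84 ± 0.23 (adjusted p = 0.016). The IFIT3 call was lost without vehicle replicate 1 (adjusted p = 0.099) or treated replicate 2 (0.095), and a further IFIT3 probe did not pass (-0.41, adjusted p = 0.19).

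Of 11 secreted defence factors 3 rose, CPA4, tissue factor (F3) by 0.90 ± 0.23 and the cytokine IL32 by 0.66 ± 0.18, and 1 fell, the metalloprotease MMP7, by 0.99 ± 0.25. All 4 calls were lost when 1 of certain arrays was left out. F3 had an adjusted p of 0.056 without treated replicate 3 and 0.053 without vehicle replicate 3. IL32 had 0.068 without treated replicate 1, 0.053 without treated replicate 3 and 0.096 without vehicle replicate 1. MMP7 had 0.086 without treated replicate 2, and a further MMP7 probe did not pass (-0.60, adjusted p = 0.065). In the redox and drug metabolism list, ALDH3B1 rose by 1.24 ± 0.26 and ALDH3A1 by 0.63 ± 0.17, and GPX2, a glutathione peroxidase of epithelia, fell by 1.20 ± 0.20. The ALDH3A1 call was lost without vehicle replicate 1 or treated replicate 2 (adjusted p = 0.1 and 0.07). None of 3 hypoxia and glycolysis genes passed, nor did the single named ribosome biogenesis gene.

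Vehicle replicate 1 changed the calls of some genes and the direction of no called one among those named by rule. Of the named genes called with all 6 arrays, 313 were also called without it and 24 were not, and 25 more were called only without it. Over all probes, 2900 were called with it and 2600 (10.5%) without it.

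**Figure D3:**
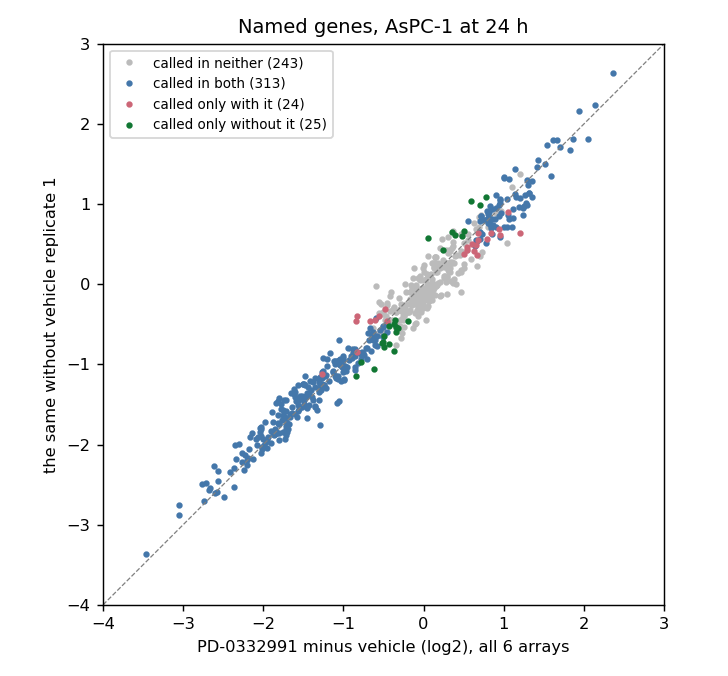
Drug effect (log2) of the 605 named genes in AsPC-1 at 24 h, from all 6 arrays on the x axis and without vehicle replicate 1 on the y axis. The dashed line marks equal values, and colours show in which fit a gene was called: 313 in both, 24 only with the array, 25 only without it and 243 in neither.

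The cell cycle genes fell in COLO-357 at 24 h too, and for few of them did the difference between lines pass a test. In COLO-357, 137 of the 139 were lower, against 5.78% of all probes lower and 5.52% higher, with a median of -1.48. Many of the 139 were named for a change in this COLO-357 comparison, so this count is not independent evidence either. The drug effect differed between lines for 175 of the 24750 probes (0.707%), 0.295% higher and 0.412% lower, and 2 of the 139 cell cycle genes were among them. Same-numbered COLO-357 arrays deviated together most clearly for replicate 2, and with a replicate block 324 probes differed. GTSE1 fell more in COLO-357, from a mean level of 10.14 ± 0.03 (SD, n = 3) to 7.68 ± 0.26, and its effect was 1.38 ± 0.25 higher in AsPC-1 (adjusted p = 0.0082). CDC25A was not above background in treated AsPC-1 and was at 8.25 ± 0.16 in treated COLO-357, so the fitted difference of -1.33 (adjusted p = 0.037) is not an exact size. This CDC25A difference was 0.04 in the authors' scaled values (adjusted p = 0.96), and its call was lost in 9 of 12 fits that left out 1 array. For CCNE2 the difference of -1.65 ± 0.40 did not pass (adjusted p = 0.057). In the authors' scaled values 10 of the 139 differed between lines, with the effect higher in AsPC-1 for all 10. Over all probes the difference leaned the same way in those values, with 361 called, 276 higher and 85 lower.

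For sterol synthesis 3 of the 6 genes differed between the lines. In COLO-357, by the probe that stands for each gene, 1 of the 6 was lower, ACAT2 by 0.66 (adjusted p = 0.0042), and the median was -0.33. A further INSIG1 probe was also lower there (-1.4, adjusted p = 7.1e-05). For that probe the difference between lines of -1 did not pass (adjusted p = 0.13). It was above background on 0 of 3 treated AsPC-1 arrays, so this is not an exact size. The effect in AsPC-1 was lower by 1.19 ± 0.21 for ACAT2 (adjusted p = 0.0069) and by 1.19 ± 0.21 for DHCR7 (adjusted p = 0.0071). Outside the list, it was lower by 1.37 ± 0.19 for TMEM97 (adjusted p = 0.0014). The calls of ACAT2, DHCR7 and TMEM97 held with any 1 of the 12 arrays left out. With only the 12 arrays fitted, TMEM97 held and ACAT2 (adjusted p = 0.071) and DHCR7 (0.068) did not. For EBP, also of the list, the difference of -0.90 passed (adjusted p = 0.039) but was lost in 10 of the 12 fits. For INSIG1 (-1.29, adjusted p = 0.065, or 0.012 with a replicate block) and HMGCS1 (-0.85, adjusted p = 0.2) it did not pass. ABCG1 rose more in COLO-357, by 1.53 against 0.67, and this difference of -0.87 (adjusted p = 0.039) was lost in 10 of 12 fits.

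**Figure D4:**
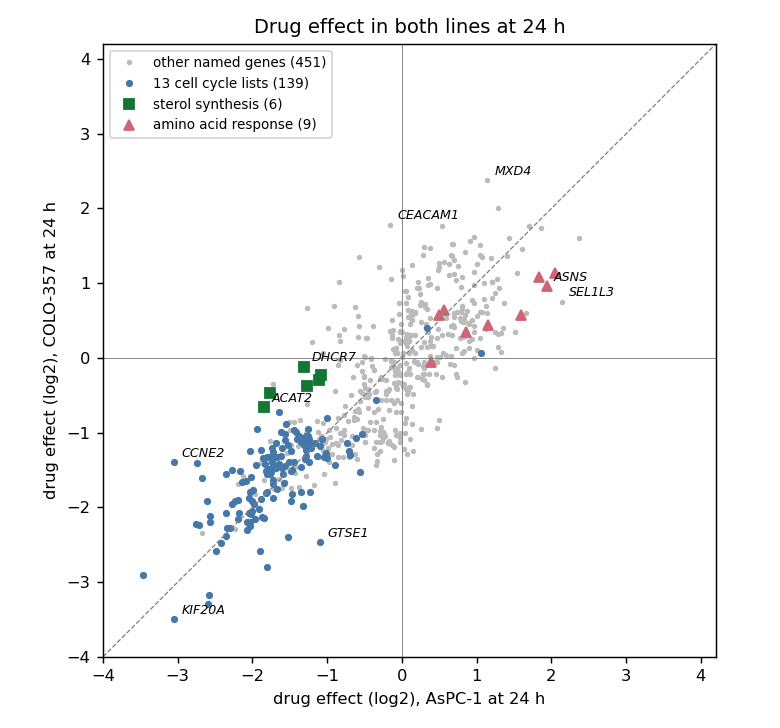
Drug effect at 24 h (log2) of the 605 named genes in AsPC-1 (x axis) and COLO-357 (y axis), with the dashed line at equal effects. Cell cycle genes lie at the lower left near the line, while the 6 sterol synthesis genes lie above it, lower in AsPC-1 than in COLO-357.

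Of the amino acid genes, 6 of 9 were also higher in COLO-357 (median 0.57), against 5.52% of all probes higher. The effect was larger in AsPC-1 for ASNS, by 0.98 ± 0.21 (adjusted p = 0.029), and for PSAT1, by 1.02 (adjusted p = 0.034), and these calls were lost in 10 and 7 of the 12 fits with 1 array left out. SEL1L3 rose by 0.75 in COLO-357 and by 1.4 ± 0.22 more in AsPC-1 (adjusted p = 0.0036), with the call kept in all 12 fits. CEACAM1, an adhesion molecule of epithelia, rose by 1.78 in COLO-357 and differed by -0.16 in AsPC-1, where it did not pass (adjusted p = 0.76), and the difference was -1.94 ± 0.34 (adjusted p = 0.0069). IFIT3 rose by 1.02 in COLO-357, and its difference of -1.86 ± 0.32 (adjusted p = 0.0062) kept its call in all 12 fits, as did that of CEACAM1. With only these 12 arrays fitted CEACAM1 held (adjusted p = 0.043) and IFIT3 did not (0.071). MXD4 rose more in COLO-357, by 2.38, with a difference of -1.24 (adjusted p = 0.038) that was lost in 10 of the 12 fits. The lines were kept in different media, so an effect of the line cannot be told apart from one of its medium.

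The fall of the cell cycle genes was much smaller at 72 h. In AsPC-1 at 72 h, 27 of the 139 were lower, against 6.06% of all probes called and 2.79% lower, with a median of -0.37, and for 137 the effect was smaller in size than at 24 h. The change of the effect from 24 h to 72 h passed the test for 116 of the 139, all upward, against 3.08% of all probes called, 1.88% upward and 1.2% downward. For CENPA the treated level was 8.66 ± 0.23 (SD, n = 3) at 72 h, against 5.73, 5.59 and 5.67 at 24 h, while the vehicle level was 9.43 ± 0.10 at 72 h. Its effect changed by 2.70 ± 0.33 (adjusted p = 4.4e-05). RRM2 differed between treated and vehicle by 0.17 at 72 h (adjusted p = 0.81), and its effect changed by 2.78 ± 0.34. The effect also changed upward for CCNE2 by 2.73 ± 0.40, EXO1 by 2.29, KIF4A by 2.27 and HJURP by 2.19. For CDC25A the fitted change of 2.95 rests on treated levels at 24 h that were not above background and is not an exact size. These 7 calls held with any 1 of the 12 AsPC-1 arrays left out. Both times used the same stated dose, and the labels do not say whether drug was renewed.

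**Figure D5:**
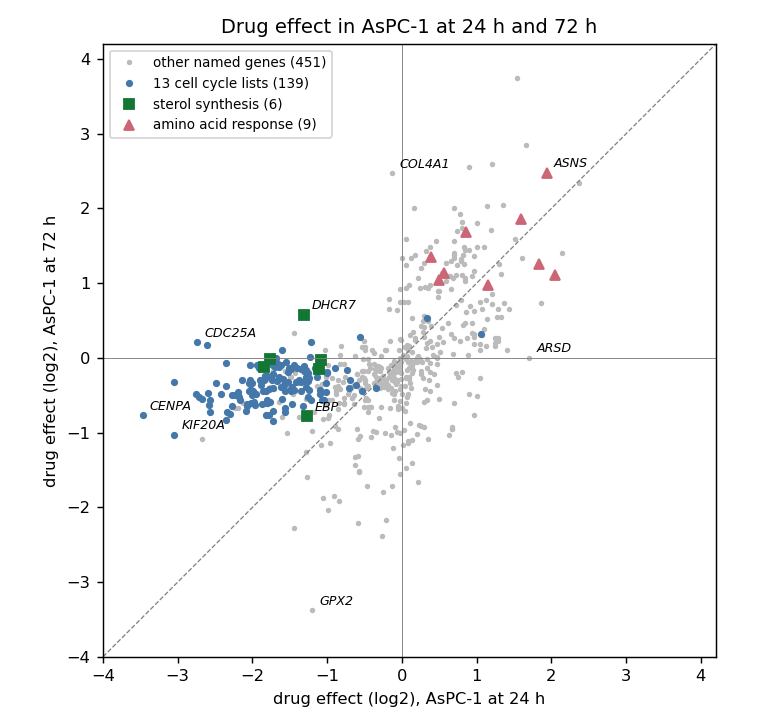
Drug effect (log2) of the 605 named genes in AsPC-1 at 24 h (x axis) and at 72 h (y axis), with the dashed line at equal effects. The 139 cell cycle genes have a median of -1.72 at 24 h and -0.37 at 72 h, while the 9 amino acid response genes lie above 0 at both times.

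Sterol and amino acid genes differed in their course. At 72 h 1 of the 6 sterol synthesis genes was lower, EBP by 0.78, and DHCR7 was higher, by 0.58 (adjusted p = 0.019). The effect moved upward for 4 of the 6, including DHCR7 by 1.89 (adjusted p = 2.1e-05) and ACAT2 by 1.73 (adjusted p = 4.4e-05). All 9 amino acid genes were higher at 72 h (median 1.26, against 3.26% of all probes higher), and ASNS was higher by 2.48 (adjusted p = 6.5e-10). ABCA1 was higher at 72 h by 2.34, close to its 2.37 at 24 h, while ABCG1 was lower by 0.93 (adjusted p = 0.00014). ARSD showed a difference of 0.00 at 72 h, and its effect changed by -1.70 ± 0.20 (adjusted p = 4.1e-05). GPX2 was lower than vehicle by 3.38 log2 units at 72 h, when its vehicle level was 9.83 ± 0.18 against 7.27, 6.79 and 6.68 at 24 h. Its treated level was 6.45 ± 0.52 at 72 h against 5.6, 5.43 and 6.13 at 24 h, so the larger difference came with a higher vehicle level.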

How the data were processed

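Total RNA of 24 cultures was hybridised to Illumina bead arrays with biotin label, per the labels' protocols. The authors deposited linear intensities with a detection p-value per probe and array, per the file headers, and a second table of intensities that differs by 1 scale factor per array. They also deposited 6 lists of changed genes with a fold ratio, used here for the pairing of probes with symbols. The scanner software and any background step are not given in the sources used here. Intensities were corrected with normexp on the detection p-values, quantile normalised and set to log2 with an offset of 16 (neqc, limma 3.58.1, R 4.3.3). Probes with a detection p under 0.05 on at least 3 of the 24 arrays were kept. A linear model with 1 mean per group was fitted to all 24 arrays with moderated variances, and p-values were adjusted by Benjamini-Hochberg over 24750 probes, with calls under 0.05. Every adjusted p in the text comes from this limma fit unless another setting is named. Differences between lines and between times are interaction contrasts of the same fit. An exact permutation test of 3 against 3 arrays cannot go below 0.1.

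A gene stands for its named probe with the highest mean level. Further probes were compared by their call in AsPC-1 at 24 h and are mentioned where it differs. For the other comparisons they were not compared throughout. Named in the text are the 15 largest falls and the 15 largest rises among called genes whose groups do not overlap, up to 8 genes per list by adjusted p with the exceptions of short lists, selected cell cycle regulators, and the 8 largest differences per direction in each interaction contrast. Of these, genes with like roles were summarised by counts. The genes and lists were chosen with earlier results of these data known. Of the 605 symbols, 462 were current, 74 older and 69 unmatched in the RefSeq table. Where a group was not above background on any of its 3 arrays, a fold is given as a limit from the lowest detected signal of each array. Such a limit applies to the normalised values only. No pair of arrays was a duplicate, and at most 0.371% of values were identical between any pair. Alternatives covered scaling, background, probe filter, arrays fitted, array weights, variance prior, threshold, replicate block and each array left out. In COLO-357 at 24 h the deviations of same-numbered arrays correlated at 0.21, 0.47 and 0.12. Replicate 2 stood apart, but vehicle replicate 3 correlated more with treated replicate 1 (0.18) than with its own number. The labels name no shared batch, so the block is given beside the difference between lines. Plots were made in Python 3.11.15 (matplotlib 3.10.9). The script for the model was tested on simulated data. Values of some single genes are not reported here.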

Additional observations from a re-analysis of the deposited data

Results flagged for a closer look

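Drug effects that differed between the lines at 24 h, or between 24 h and 72 h in AsPC-1, are given here by the test of the difference itself, on the log2 scale. The effect was higher in AsPC-1 than in COLO-357 for SEL1L3 by 1.4, GTSE1 by 1.38, C6orf160 by 1.37, NEURL1B by 1.35, GALNT9 by 1.24, LOC729779 by 1.16, MFAP5 by 1.06 and PSAT1 by 1.02. The difference was negative for CEACAM1 (-1.94), CYP3A5 (-1.91), IFIT3 (-1.86), GPX2 (-1.40), TMEM97 (-1.37), CDC25A (-1.33), OASL (-1.31), MXD4 (-1.24), ACAT2 (-1.19), DHCR7 (-1.19) and EBP (-0.90). GALNT9, a GalNAc transferase family gene, rose in AsPC-1 from 7.18, 7.47 and 7.98 to 8.73, 8.90 and 8.96, and differed by 0.08 in COLO-357 (adjusted p = 0.88). NEURL1B differed by 0.07 in AsPC-1 (adjusted p = 0.9) and fell by 1.28 in COLO-357. CYP3A5, a drug-metabolising cytochrome, differed by -0.57 in AsPC-1 (adjusted p = 0.28) and rose by 1.35 in COLO-357. The NEURL1B, CYP3A5, MFAP5, MXD4 and EBP calls were lost in 10, 11, 10, 10 and 10 of 12 fits that left out 1 array, those of C6orf160, LOC729779, PSAT1, GPX2, OASL, CDC25A and GALNT9 in 5, 5, 7, 7, 7, 9 and 1. Of the 21 named genes examined that were called for this difference, 7 kept the call with any 1 of 12 arrays left out and 14 lost it at least once.

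From 24 h to 72 h the effect moved upward for CDC25A by 2.95, RRM2 by 2.78, CCNE2 by 2.73, CENPA by 2.70, COL4A1 by 2.60, EXO1 by 2.29, KIF4A by 2.27 and HJURP by 2.19. COL4A1, a basement membrane collagen, was above background on 1 of 3 vehicle and 0 of 3 treated arrays at 24 h and on 0 of 3 vehicle arrays at 72 h, and was higher by 2.47 at 72 h. The fitted changes of COL4A1 and CDC25A rest on levels not above background and are not exact sizes. The change was negative for GPX2 (-2.18), TMEM86B (-2.12), HBA1 (-1.95), MYO1A (-1.87), GOLT1A (-1.75), ARSD (-1.70), ALDH3A1 (-1.66) and C10orf116 (-1.63). GOLT1A rose by 0.97 at 24 h (adjusted p = 0.00012) and differed by -0.77 at 72 h. The calls for TMEM86B and C10orf116 were lost in 6 and 9 of the 12 fits that left out 1 array, and the other 14 kept theirs each time. No explanation was tested for any of these differences.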

How the results depend on the processing

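Of the 136 called genes named by rule, 0 changed direction under any alternative tried, 7 lost the call without some single array and 1, RECQL4, in the authors' scaled values (-0.38, adjusted p = 0.053). With only the 6 arrays compared, 19 lost the call: CKS2, RECQL4, LIG1, ESPL1, CARS, HMGCS1, ABCG1, MAP1LC3B, SNAI2, ACTA2, CLDN7, MMP7, F3, IL32, IFIT3, GPX2, ALDH3B1, ALDH3A1 and C6orf160. A threshold of 0.01 ended 7, the 12 AsPC-1 arrays alone 5, array weights 3 and no probe filter 1. For the difference between lines, fitting only the groups compared ended 16 named calls. The AsPC-1 drug effect had 2900 calls, and 1966 to 3066 with each array left out in turn. It had 674 (230 higher, 444 lower) when only the 6 arrays compared were fitted, 1813 with only the 12 AsPC-1 arrays and 1483 at an adjusted p under 0.01. The share of calls that were higher was 50.6%, 71.2% in the authors' scaled values, 60.6% with 75th percentile scaling and 34.1% with only the 6 arrays. The difference between lines had 175 calls, 361 in the authors' scaled values (276 higher, 85 lower), 305 with a stricter detection filter, 41 with only the groups compared, 43 at an adjusted p under 0.01, and 70 to 267 with each array left out. The difference between times had 762 calls, 450 in the authors' scaled values, 466 with 75th percentile scaling, 365 with only the groups compared or only the 12 AsPC-1 arrays, 343 at an adjusted p under 0.01, and 489 to 1022 with each array left out. The effect of CEACAM1 in AsPC-1, not called at -0.16, was 0.08 in the authors' scaled values and 0.05 with 75th percentile scaling. The CDC25A difference between lines was 0.04 in the authors' scaled values, and TXNIP, not called, ran from -0.03 (without vehicle replicate 3) to 0.34 (without vehicle replicate 1). Apart from the different arrays, probes or thresholds that these alternatives use, the cause was not tested. Arrays with the same replicate number deviated together by correlations of 0.01, 0.07 and 0.02 in AsPC-1 at 24 h, and 0.08, 0.12 and 0.03 at 72 h, so the numbers did not pair them, and not every array correlated best with its own number. With a replicate block there were 3383 calls for the drug effect, 324 for the difference between lines and 1018 for that between times. Among the named genes examined for the difference between lines, it changed only the INSIG1 call. Signal over background limits CDC25A and FAM64A to a bound and leaves COL4A1 with no fold at 24 h, and 3 arrays per group limit the precision of every value.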

Other observations

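Some transcripts related to small nucleolar RNAs or translation, chosen after their values were seen and with no test as a group, were called in AsPC-1 at 24 h in both directions. SNHG5, a noncoding host of small nucleolar RNAs, had levels of 11.84, 12.89 and 13 with vehicle and of 13.52, 13.48 and 13.59 with the drug, and rose by 0.96 ± 0.19 (adjusted p = 0.0014). C6orf160, an older symbol of SNHG5, rose by 1.24 ± 0.20, and C20orf199 (ZFAS1), a further host gene, by 1.12 ± 0.19. NCRNA00219 and TIGA1, both older symbols of EPB41L4A-AS1, rose by 1.25 and 1.29, and EEF1A1, the elongation factor, by 0.96. Vehicle replicate 1 was the lowest vehicle array for the noncoding members, and without it SNHG5 rose by 0.59 (adjusted p = 0.0013), C6orf160 by 0.86, C20orf199 by 0.83, NCRNA00219 by 0.98 and TIGA1 by 0.99. SNHG3-RCC1 (-0.54, adjusted p = 0.0035) and the small nucleolar RNA SNORD96A (-0.71, adjusted p = 0.029) fell. In COLO-357 SNHG5 differed by 0.00 and C20orf199 by 0.38 (adjusted p = 0.25), while EEF1A1 rose by 0.98. The difference between lines passed for C6orf160 (adjusted p = 0.026, lost in 5 of 12 fits that left out 1 array) and not for SNHG5 (adjusted p = 0.1) or C20orf199 (adjusted p = 0.23).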
